A study of Mus musculus with 11 samples.

Results

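The genes described here are 10 heat shock proteins and chaperones of the mouse: Hspa1a, Hspa1b, Hspa8, Hsph1, Dnajb1, Bag3, Hsp90aa1, Hspb1, Hspd1 and Hspe1. They were picked by symbol, and matched to the Entrez identifiers of the count table. Earlier results of these data were known when these genes and the lists below were chosen. Counts set against shares of all genes therefore describe the lists and are no independent test. The table lists 27179 genes, of which 17370 passed the filter on low counts, and all 10 heat shock genes were among these. Their levels were read in 11 RNA-seq libraries of mammary epithelial cells from E-cadherin-GFP mice of the C57BL/6 strain aged 5 weeks. All 4 groups share the strain and the reporter, and none was treated or mutated further. Terminal end buds (TEBs), the growing tips of the ductal tree in puberty, were dissected apart from ducts, and each portion was sorted into cells with bright GFP (luminal) and dim GFP (basal). The groups were basal duct (3 libraries), basal TEB (3), luminal duct (2, named replicates 1 and 3) and luminal TEB (3). The authors had discarded 1 further luminal duct sample, which held few cells. Each replicate was a pool of 2 or more mice. The p-values below rest on the spread between libraries of the same group, fitted over all 4 groups without a term for the pool.

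The libraries held from 27989137 to 49221436 counts in total. The basal markers (8 genes, such as Krt5 and Krt14) summed to between 5671 and 20419 CPM (counts scaled to library size) in basal libraries and to at most 270.5 CPM in luminal libraries. The luminal markers (10 genes, such as Krt8 and Krt18) summed to at most 570.7 CPM in basal libraries and to at least 13421 CPM in luminal libraries, so every library carried the markers of its label. The share of counts on mitochondrial genes was 37.5% in basal TEB replicate 1 and 28.5% in luminal duct replicate 3, against 4.34% to 17.8% in the other libraries. These 2 libraries had the highest shares, and calls are given below also without them. The 17.8% was basal TEB replicate 3, which stays in those fits, while basal TEB replicate 2 had 4.74%. Shares were 6.66% to 10.9% in basal duct and 4.34% to 4.77% in luminal TEB, so the share was not even between groups.

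Heat shock proteins are chaperones that hold unfolded proteins and help them to fold, and many of their genes are switched on within minutes to hours by heat, oxidants or other stress to proteins. The heat shock factor HSF1 does so by binding short repeats in their promoters. HSP70 proteins bind exposed stretches of a client, J-domain proteins such as Dnajb1 bring the client and start ATP hydrolysis, and exchange factors such as Bag3 and Hsph1 release it. Hsp90aa1 acts later on partly folded clients, small heat shock proteins such as Hspb1 hold unfolded proteins without ATP, and Hspd1 with its lid Hspe1 folds proteins inside mitochondria. In epithelial tissue such genes also respond to the handling of the cells before RNA is taken.

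The heat shock element is a repeat of the unit GAA and its reverse complement TTC in alternating order, each separated by 2 free bases. It was searched on both strands of the RefSeq promoter windows (build GRCm38.p6), which reach from 250 bases before to 50 bases after the transcription start. Windows were found for 8 of the 10 genes, Hspa8 and Hsp90aa1 having none here. The form with 3 units (GAANNTTCNNGAA or TTCNNGAANNTTC) was found in 3 of the 8, Hsph1, Hspd1 and Hspe1, and in 0.662% of all 27025 genes with a window. The form with 2 units (GAANNTTC or TTCNNGAA), which every match of 3 units also contains, was found in 7 of the 8, in all but Dnajb1, and in 17% of all genes with a window. These are not all separate sites, since the Hspd1 and Hspe1 matches are the same bases and the Hspa1a and Hspa1b windows are nearly identical. Among other chaperones, 2 of 88 genes with a window held the form with 3 units and 17 held that with 2 units. A match of letters is a description and not a measured binding site. The stretches are shown for the pair of stress-inducible HSP70 genes, for the small heat shock protein and for the mitochondrial pair. Those of Hsph1 and Bag3 are not shown. The Hsph1 match of 3 units begins 36 and 15 bases after the start in its windows 1 and 2. A match of 2 units in Hsph1 begins 33 and 54 bases before the start there. The Bag3 match of 2 units begins 42 bases after the start. Capitals mark the matches, and each line reads 5′ to 3′ on the strand of the gene.
Hspa1a: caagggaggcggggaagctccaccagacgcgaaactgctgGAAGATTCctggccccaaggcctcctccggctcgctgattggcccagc
Hspa1b: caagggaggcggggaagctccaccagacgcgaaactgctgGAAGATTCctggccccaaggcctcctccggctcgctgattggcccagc
Hspb1: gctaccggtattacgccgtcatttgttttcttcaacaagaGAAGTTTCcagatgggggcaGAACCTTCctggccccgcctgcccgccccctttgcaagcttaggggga
Hspe1: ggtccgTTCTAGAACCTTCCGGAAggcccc
Hspd1: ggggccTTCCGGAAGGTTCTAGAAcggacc

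The Hspa1a stretch lies at chr17:34972213-34972300 and the Hspa1b stretch at chr17:34959295-34959382, both on the minus strand and upstream of the annotated start. The Hspb1 stretch lies at chr5:135887762-135887869 on the plus strand, also upstream of the start. The Hspe1 and Hspd1 lines are the same bases, chr1:55088053-55088082, read on the plus and the minus strand. These genes lie head to head, and the bases fall upstream of Hspe1 and inside the bounds of Hspd1. Hspd1 has a match in its window 2 alone, where it begins 144 bases before that start, and its window 1 holds none. Hspa1a and Hspa1b are neighbours on chromosome 17, at 34969359 to 34972156 and 34956429 to 34959238, and both encode the stress-inducible HSP70. Their promoter windows were identical in 296 of 300 bases, and 51.6% of the 80-base windows of the Hspa1a transcript occurred unchanged in Hspa1b. A read from these shared windows cannot by itself be placed on either gene with certainty, though its mate may lie outside them. Values of Hspa1a and Hspa1b are therefore also given summed. Hspd1 and Hspe1 overlap by 96 bases on opposite strands. The TruSeq RNA kit used is of a type that does not mark strand, so reads from that overlap cannot by themselves be told apart. Hspa8 holds small nucleolar RNA genes within its bounds.

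The pattern over the 4 groups was not shared by the 10 genes. Basal TEB libraries held the lowest levels of Hspa1a, Hspa1b and Hspb1 and the highest of Hspe1, the highest group mean of Hspd1 was also that of basal TEB, and Hsph1 followed the cell type. Per length (RPKM, counts scaled to both library size and gene length), Hspa8, the HSP70 made without stress, was the most abundant in every group, with a mean from 624.9 RPKM in luminal duct to 950.2 RPKM in basal duct. Hsph1, the HSP110 exchange factor, was the least abundant in every group, from 11.2 RPKM in luminal TEB to 27.8 RPKM in basal duct. By mean RPKM, Hspa1b ranked 2 in basal duct, luminal duct and luminal TEB. In both duct groups its lead over Hspb1 at rank 3 was within the spread. It was at 225.6 ± 83.4 against 212.4 ± 33.8 RPKM in basal duct (SD, n = 3). In luminal duct it was at 280.5 ± 170.8 against 198.1 ± 21.2 RPKM (SD, n = 2). In basal TEB it ranked 6, at 70.2 ± 20.3 RPKM (SD, n = 3), next to Hspb1 at 72.9 ± 13.6 RPKM, a difference within the spread. There rank 2 was taken by Hspe1, at 211.1 ± 63.7 RPKM (SD, n = 3).

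**Figure D1:**
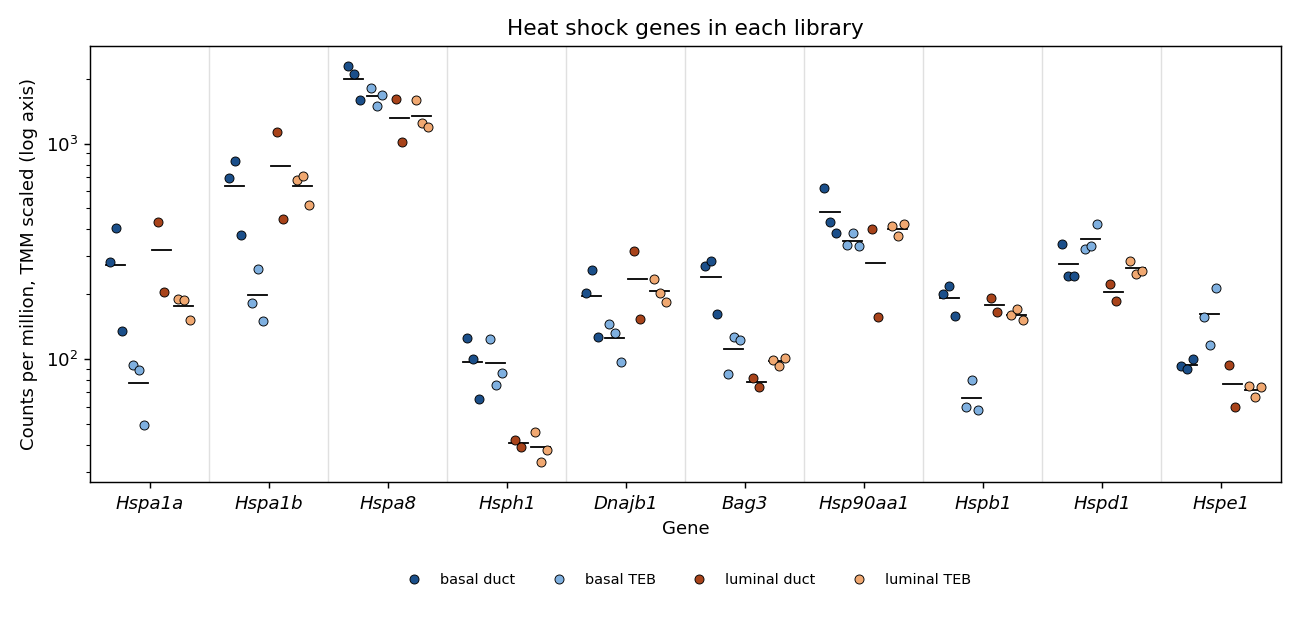
Level of each heat shock gene in every library, in CPM after TMM scaling on a log axis, with 1 point per library, coloured by group, and a bar at the group mean. For Hspa1a, Hspa1b and Hspb1 the 3 basal TEB points lie below all others, and for Hsph1 the 6 basal points lie above the 5 luminal ones.

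The 10 genes together took between 0.206% and 0.522% of a library's counts. Their summed level was 5129, 4959 and 3353 CPM in basal duct replicates 1, 2 and 3 and 3330, 3089 and 3221 CPM in basal TEB replicates 1, 2 and 3. It was 4522 and 2507 CPM in luminal duct replicates 1 and 3 and 3782, 3329 and 3094 CPM in luminal TEB replicates 1, 2 and 3. On this TMM-scaled sum the basal duct and luminal duct libraries varied most and the basal TEB libraries least. Without TMM the SD was 769.9 CPM in basal TEB and 376.1 CPM in luminal TEB, so that order between the TEB groups rests on the scaling. Hspa8 made up between 35.6% and 54.7% of the sum in a library, and the Hspa1a and Hspa1b pair between 6.18% and 34.5%. The pair's share was lowest in the 3 basal TEB libraries (6.18% to 11.3%) and highest in luminal duct replicate 1. Relative to the means of their own groups, 9 of 10 genes were lower in basal duct replicate 3. In luminal duct, all 10 genes were higher in replicate 1 than in replicate 3.

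**Figure D2:**
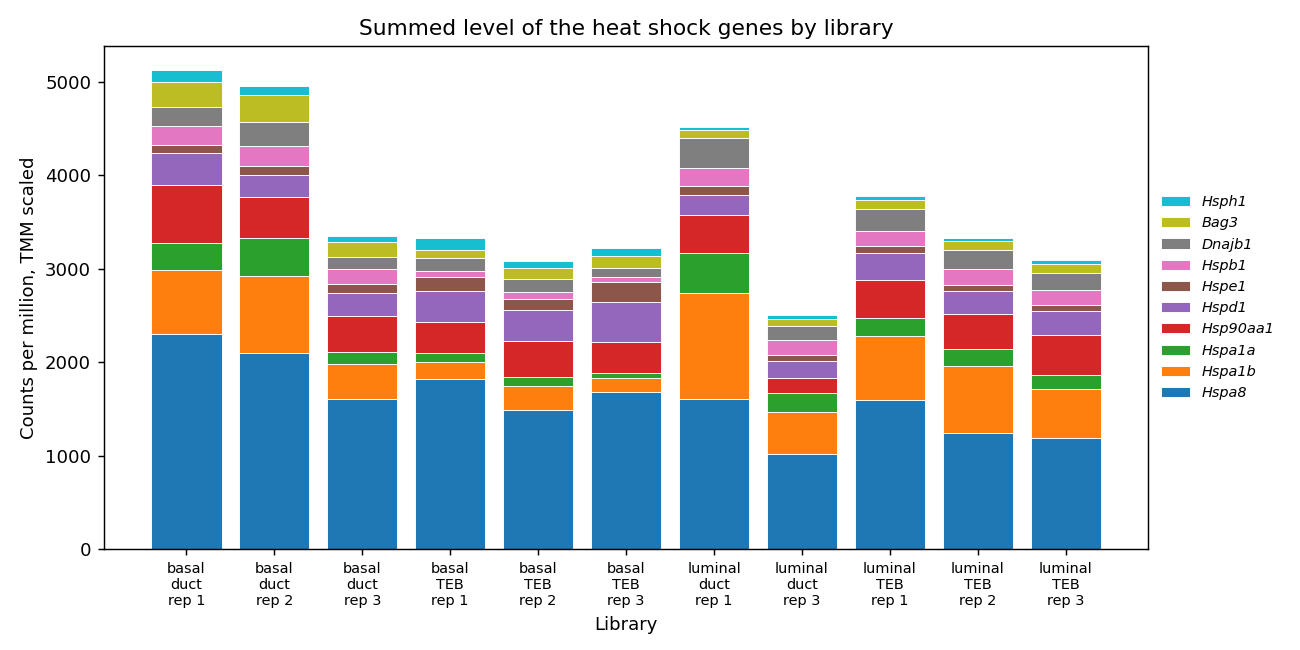
Summed level of the 10 heat shock genes in each library, in CPM after TMM scaling from 0, with the parts of each bar coloured by gene. The bars run from 2507 CPM (luminal duct replicate 3) to 5129 CPM (basal duct replicate 1), and the Hspa1a and Hspa1b parts are thinnest in the basal TEB libraries.

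The first comparison asked how basal cells of TEBs differed from those of ducts. Hspb1 and Bag3 were lower in TEBs and passed the test, which is 2 of the 10 genes against 1.32% of all genes tested. The test was the quasi-likelihood test of edgeR, adjusted after Benjamini and Hochberg over the 17370 genes, and a gene passed at a false discovery rate (FDR) below 0.05. The groups did not overlap for 5 of the 10 genes, against 20.8% of all genes. Of these, Hspa1a, Hspa1b, Hspb1 and Bag3 were lower in TEBs and Hspe1 was higher. The median log2 fold change of the 10 genes was -0.54, and that of all genes -0.03. Less RNA per cell and fewer cells with the RNA cannot be told apart in pooled cells.

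Hspb1, a small heat shock protein that also binds actin filaments, was measured at 199.6, 217.6 and 158.2 CPM in basal duct replicates 1, 2 and 3. In basal TEB replicates 1, 2 and 3 it was 59.85, 80.03 and 57.7 CPM. Every TEB library was below every duct library, by a wide gap. Hspb1 was 2.91-fold lower in TEBs (log2 fold change -1.54, SE 0.18, FDR 0.00225). The call held without any library in turn, at an FDR of at most 0.0209, and without both libraries of high mitochondrial share (log2 fold change -1.47, FDR 0.00959). It was lost only under library size alone, with no composition scaling (-1.64, FDR 0.0573).

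Bag3, the cochaperone that links HSP70 to small heat shock proteins and to autophagy, was measured at 270.3, 286.0 and 161.5 CPM in basal duct. In basal TEB it was 85.1, 126.5 and 122.8 CPM, so the groups did not overlap. It was 2.15-fold lower in TEBs (log2 fold change -1.10, SE 0.23, FDR 0.0395). The Bag3 call was lost without basal duct replicate 1 (-1.03, FDR 0.150) or 2 (-0.95, FDR 0.150) and without basal TEB replicate 1 (-0.93, FDR 0.120) or 3 (-1.18, FDR 0.134). It was also lost without luminal TEB replicate 1, 2 or 3 (FDR 0.0751, 0.0706 and 0.0780) and without both libraries of high mitochondrial share (-0.93, FDR 0.0830). Over all 24 alternatives, Bag3 passed in 13. With the replicate number as a block in the fit, Bag3 did not pass.

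The largest fold changes of the 10 genes in basal cells belonged to the inducible HSP70 pair and missed the threshold narrowly. Hspa1a was measured at 282.2, 405.3 and 134.5 CPM in basal duct and at 94.0, 89.0 and 49.3 CPM in basal TEB. Hspa1b was measured at 692.9, 832.9 and 375.7 CPM in basal duct and at 181.3, 260.6 and 149.9 CPM in basal TEB. In both genes basal duct replicate 3 was the lowest of its group and yet above every TEB library. The log2 fold change of Hspa1a was -1.82 (SE 0.40, 95% interval -2.70 to -0.95, FDR 0.0508) and that of Hspa1b was -1.68 (SE 0.37, 95% interval -2.50 to -0.87, FDR 0.0532). Summed as a single gene, the pair had a log2 fold change of -1.72 (SE 0.38, FDR 0.0513). Each of Hspa1a and Hspa1b passed in 11 of 23 alternative analyses, but with each library left out in turn Hspa1a passed in 3 of 11 fits and Hspa1b in 4 of 11. With the replicate number as a block in the fit, both genes passed. Without basal duct replicate 3 both passed (Hspa1a -2.15, FDR 0.0145, and Hspa1b -1.95, FDR 0.0279), and without basal TEB replicate 3 the FDR was highest (Hspa1a -1.58, FDR 0.231, and Hspa1b -1.52, FDR 0.247).

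The mitochondrial chaperonin lay on the other side. Hspe1 was measured at 92.5, 90.2 and 99.9 CPM in basal duct and at 157.4, 115.7 and 213.2 CPM in basal TEB. The TEB libraries were all above the duct libraries and spread more widely. The lowest of them was replicate 2, which also had the lowest mitochondrial share of its group (4.74%). The part of that share was not tested. The log2 fold change of Hspe1 was 0.78 (SE 0.23, FDR 0.143), short of the threshold. Its partner Hspd1 was measured at 340.7, 242.9 and 243.3 CPM in basal duct and at 322.9, 333.3 and 425.5 CPM in basal TEB, with overlap, and a log2 fold change of 0.39 (FDR 0.371). The remaining genes did not pass and their groups overlapped. Dnajb1 had a log2 fold change of -0.65 (FDR 0.351), Hsp90aa1 one of -0.44 (FDR 0.533) and Hspa8 one of -0.26 (FDR 0.669). For Hsph1 it was -0.02, with a 95% interval from -0.58 to 0.54.

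Genes of the immediate early response, which cells also switch on within minutes of a stimulus, moved with these differences. Of 15 such genes (Fos, Jun, Egr1 and others), 8 were lower in basal TEB than in basal duct and passed the test (1.16% of all genes were), none was higher (0.167% of all genes), and all 15 had a log2 fold change below 0 (52.1% of all genes had one). Without both libraries of high mitochondrial share the number that passed was 5, and it ran from 2 to 12 over all alternatives, which were added for this list after the data were seen. Their summed level was 19965 to 26491 CPM in basal duct, 8664 to 12690 CPM in basal TEB, 19648 and 22895 CPM in luminal duct and 15232 to 18513 CPM in luminal TEB. The basal markers also differed, with a sum of 16527 to 20419 CPM in basal duct against 5671 to 8752 CPM in basal TEB, and 4 of 8 were lower and passed. Fibroblast markers (6 genes) summed to 418.1 to 789.6 CPM in basal duct and 208.9 to 364.0 CPM in basal TEB, with none of 6 passing, and Lum and Pdgfrb at 0 in some libraries. Luminal markers summed to 535.4 to 570.7 CPM in basal duct and 340.9 to 401.7 CPM in basal TEB, with 1 of 10 passing as lower. Adipocyte and endothelial markers summed to 190.2 and 178.7 CPM in basal duct replicate 2, against at most 25.8 and 37.9 CPM in the other basal libraries, and none of either list passed. Immune markers summed to at most 75.7 CPM in basal libraries. The part of these genes in the fold changes of the heat shock genes was not tested.

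In luminal cells, none of the 10 genes passed the test between TEBs and ducts, where 1.41% of all genes did. The number at an unadjusted p below 0.05 was also 0, against 16.6% of all genes, and DESeq2 and limma voom called none. The luminal duct group rests on 2 libraries that lay farther apart than the luminal TEB libraries. Of the 8 basal markers, 7 passed as lower in luminal TEB. The 8 summed to 99.0 and 270.5 CPM in luminal duct replicates 1 and 3 and to 15.5 to 28.6 CPM in luminal TEB. Fibroblast, adipocyte, immune and erythroid markers summed to 210.8, 78.5, 64.1 and 28.8 CPM in luminal duct replicate 3. In replicate 1 they summed to 6.01, 0, 11.3 and 6.12 CPM, and none of these lists held a gene that passed. The part of these markers was not tested. Hspa1a was measured at 434.4 and 204.0 CPM in luminal duct and at 189.9, 188.0 and 151.0 CPM in luminal TEB. The groups did not overlap, and the log2 fold change was -0.86 (95% interval -1.79 to 0.08, FDR 0.337). Hspa1b was measured at 1128 and 448.9 CPM in luminal duct, on either side of the luminal TEB libraries at 680.0, 708.8 and 521.4 CPM. Its log2 fold change was -0.31 (FDR 0.741).

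Hspb1 hardly differed between the luminal groups, at 192.5 and 165.3 CPM in duct against 159.2, 170.6 and 151.6 CPM in TEB, with a log2 fold change of -0.16 (95% interval -0.59 to 0.28). Bag3 was measured at 81.9 and 74.4 CPM in luminal duct and 99.2, 92.3 and 101.1 CPM in luminal TEB (log2 fold change 0.32, FDR 0.543). Hspd1 also lay higher in every luminal TEB library than in luminal duct, at 221.8 and 186.3 CPM in duct against 284.8, 248.2 and 256.6 CPM in TEB (log2 fold change 0.37, FDR 0.400). Groups did not overlap for these 2 genes and Hspa1a, which is 3 of 10 against 43.7% of all genes. Hsp90aa1, the stress-inducible HSP90, was measured at 401.5 and 156.7 CPM in luminal duct and at 413.3, 370.8 and 421.6 CPM in luminal TEB. Luminal duct replicate 3 stood far below the other 4 libraries. Its log2 fold change was 0.53 (FDR 0.442) and became 1.36 (FDR 0.0194) without luminal duct replicate 1, and 0.00 without luminal duct replicate 3. Each of these fits leaves 1 luminal duct library, which is assumed to vary like the other groups. Dnajb1, Hspa8, Hsph1 and Hspe1 had log2 fold changes between -0.18 and 0.04.

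Whether TEBs and ducts differed by another amount in basal than in luminal cells was tested as an interaction. None of the 10 genes passed, against 0.443% of all genes, and 4 had an unadjusted p below 0.05 by edgeR's quasi-likelihood test, against 14.7% of all genes. These were Bag3, Hspb1, Hspe1 and Hspa1b. For Hspb1 the difference of the log2 fold changes was -1.38 (SE 0.27, FDR 0.0596), and for Bag3 it was -1.42 (SE 0.34, FDR 0.105). Hspb1 passed in 7 of 23 alternatives and Bag3 in 3 of 23. Among the tools, DESeq2 and edgeR's likelihood ratio test each called 2 of the genes, and limma voom called 1. Both TEB comparisons use separate libraries, so their values can be set side by side. Hspb1 had a log2 fold change of -1.54 in basal and -0.16 in luminal cells, and Bag3 of -1.10 and 0.32.

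**Figure D3:**
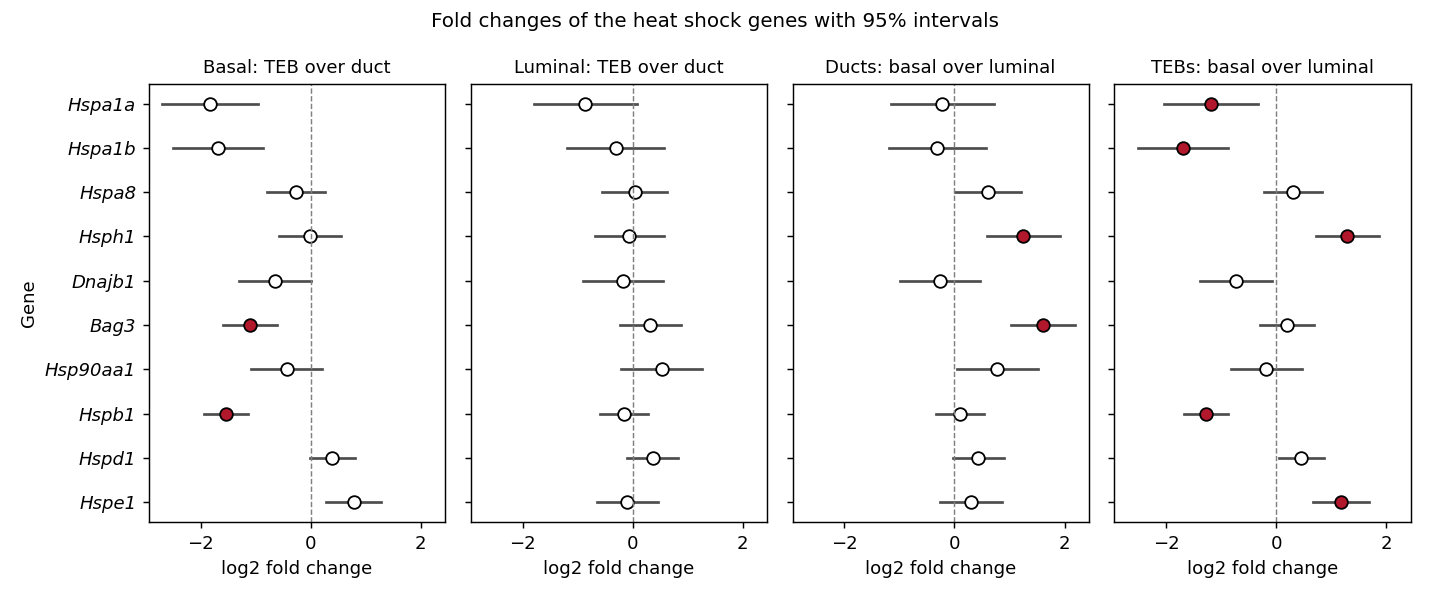
Log2 fold change of each heat shock gene in 4 comparisons, with its 95% interval as a line, a filled point where the FDR was below 0.05, and a dashed line at 0. Filled points are Bag3 and Hspb1 in the basal TEB comparison, Hsph1 and Bag3 in ducts, and Hspa1a, Hspa1b, Hsph1, Hspb1 and Hspe1 in TEBs, with none in the luminal comparison.

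Basal and luminal cells were then compared within each structure. In ducts, Hsph1 and Bag3 were higher in basal cells and passed the test, 2 of 10 genes against 22.3% of all genes. Bag3 was 3.06-fold higher (log2 fold change 1.61, SE 0.27, FDR 0.000883), and the lowest basal duct library, at 161.5 CPM, was well above the higher luminal duct library at 81.9 CPM. The Bag3 call held in all 24 alternatives. Hsph1 was measured at 125.5, 99.5 and 64.9 CPM in basal duct and at 41.9 and 39.2 CPM in luminal duct, with no overlap. It was 2.38-fold higher in basal cells (log2 fold change 1.25, SE 0.30, FDR 0.0103), a call lost only without luminal duct replicate 3 (1.20, FDR 0.0633).

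No difference between the cell types of ducts was detected for the other 8 genes. The log2 fold changes of Hspa1a, Hspa1b and Dnajb1 lay between -0.31 and -0.22, and that of Hspb1 was 0.10 with a 95% interval from -0.34 to 0.54. Hspa8 was at 0.60 (FDR 0.139) and Hsp90aa1 at 0.78 (FDR 0.122). Both moved with each luminal duct library. Without replicate 1 Hspa8 had 0.97 (FDR 0.0424) and Hsp90aa1 had 1.61 (FDR 0.00268), and without replicate 3 they had 0.31 (FDR 0.504) and 0.25 (FDR 0.564), where again the lone luminal duct library is assumed to vary like the other groups. Hspd1 had 0.43 (FDR 0.168), with every basal library above both luminal ones, and Hspe1 had 0.30 (FDR 0.441). The groups did not overlap for Hsph1, Bag3 and Hspd1, against 46% of all genes.

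In TEBs, 5 of the 10 genes passed between basal and luminal cells, against 25.1% of all genes, and they went in both directions. Hsph1 and Hspe1 were higher in basal cells, and Hspa1a, Hspa1b and Hspb1 were lower. The groups did not overlap for 7 of the 10, against 49.8% of all genes, the further 2 being Dnajb1 (lower in basal cells) and Hspd1 (higher). Hspb1 was 2.44-fold lower in basal cells (log2 fold change -1.28, SE 0.18, FDR 0.000248), and it kept its call in all 24 alternatives. Hspa1b was 3.23-fold lower (log2 fold change -1.69, SE 0.37, FDR 0.00538), with a basal maximum of 260.6 CPM against a luminal minimum of 521.4 CPM. It passed in all 23 alternatives.

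Hspa1a was 2.28-fold lower in basal cells of TEBs (log2 fold change -1.19, SE 0.39, FDR 0.0448), at 49.3 to 94.0 CPM against 151.0 to 189.9 CPM. Its call was lost without any of the 6 TEB libraries or without basal duct replicate 1, with log2 fold changes from -1.35 (without basal TEB replicate 1) to -0.95 (without basal TEB replicate 3) and an FDR from 0.0605 to 0.156. The summed pair had a log2 fold change of -1.57 (SE 0.38, FDR 0.00916). Hspe1 was 2.26-fold higher in basal cells (log2 fold change 1.18, SE 0.23, FDR 0.00249), at 157.4, 115.7 and 213.2 CPM against 74.5, 66.6 and 73.8 CPM. Hsph1 was 2.45-fold higher (log2 fold change 1.29, SE 0.26, FDR 0.00319), at 124.4, 75.8 and 85.8 CPM against 45.8, 33.2 and 37.9 CPM. Without composition scaling, Hspe1 (0.73, FDR 0.114) and Hsph1 (0.80, FDR 0.0528) did not pass, and the median of all genes moved from 0.04 to -0.35.

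The other 5 genes did not pass in TEBs. Dnajb1, the J-domain partner of the inducible HSP70, was measured at 145.0, 132.7 and 97.3 CPM in basal TEB and at 234.2, 202.6 and 184.8 CPM in luminal TEB. The libraries separated, and the log2 fold change was -0.73 (SE 0.30, FDR 0.102). It passed without both libraries of high mitochondrial share (-0.86, FDR 0.0460). Hspd1 had a log2 fold change of 0.45 (FDR 0.102). Bag3, which differed between the cell types of ducts, had 0.19 here (95% interval -0.30 to 0.68), with basal TEB at 85.1 to 126.5 CPM around luminal TEB at 92.3 to 101.1 CPM. Hspa8 had 0.31 (FDR 0.400) and Hsp90aa1 had -0.18 (FDR 0.704). Of the immediate early genes, 7 of 15 passed as lower and 3 as higher in basal than in luminal cells of TEBs, against 11.8% and 13.2% of all genes. In ducts 3 passed as lower and 6 as higher, against 9.71% and 12.6% of all genes, and their part was not tested.

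Across the 11 libraries, members of the set fell into blocks by the correlation of their log2 CPM, given as a description of libraries that share groups and scaling. Hspa1a and Hspa1b had a Pearson r of 0.94, Hspa1b and Hspb1 one of 0.94, and Hspa1b and Dnajb1 one of 0.92. With the group means taken out, Hspa1a and Dnajb1 had an r of 0.97 and Hspa1b and Dnajb1 one of 0.92 (n = 11), so these genes also went up and down together among libraries of the same group. Of the 45 pairs, 40 had an r above 0 after the group means were taken out. The share over all gene pairs was not computed. Shifts of whole libraries enter these values, with 9 of 10 genes below the group mean in basal duct replicate 3. All 10 lay above it in luminal duct replicate 1 and below it in replicate 3, where 2 libraries can only mirror each other. The part of such shifts was not tested. Hspd1 and Hspe1 had an r of 0.79, whereas Hspb1 and Hspe1 had one of -0.81 over all libraries and of -0.44 within groups.

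The counts of Hspa1b exceeded those of Hspa1a in every library. The ratio of Hspa1b to Hspa1a counts was 2.46, 2.05 and 2.79 in basal duct replicates 1, 2 and 3, and 1.93, 2.93 and 3.04 in basal TEB replicates 1, 2 and 3. It was 2.60 and 2.20 in luminal duct and 3.58, 3.77 and 3.45 in luminal TEB. The luminal TEB libraries thus lay above the other 8 libraries. No test was made of the ratio, and how reads from the shared windows were split between the genes is not known here. The ratio of Hspd1 to Hspe1 in RPKM was 1.14 to 1.26 in luminal TEB and 0.66 to 0.95 in basal TEB.

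Among genes outside the set, those with the pattern most like Hspa1a over the 11 libraries were Osgin1 (Pearson r 0.97), Tob1 (0.95) and Fam214b (0.94). For Hspd1 they were Noc2l (0.94), Mpp6 (0.92) and Ncl (0.91), the last of these being nucleolin, a protein of ribosome assembly. The search covered 7853 genes whose mean log2 CPM reached 4 or more.

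A further 108 chaperones and heat shock factors were listed by family, of which 105 were tested. Between TEBs and ducts few of them passed. In basal cells 1 passed, Hspa2, an HSP70 gene best known from the testis, which was 4.24-fold lower in TEBs (log2 fold change -2.08, SE 0.23, FDR 0.00179). Hspa2 was measured at 153.4, 136.6 and 82.2 CPM in basal duct and at 29.1, 28.4 and 30.3 CPM in basal TEB, without overlap. The median log2 fold change of the 105 genes was 0.19 in that comparison and 73 of them were above 0, against 46.9% of all genes. In luminal cells 1 gene passed, Hspa12a, a distant HSP70 relative that falls under the level set for named genes and was named after its values were seen. It had 0 counts in both luminal duct libraries and 19, 21 and 28 counts in the luminal TEB libraries. It did not pass without both libraries of high mitochondrial share.

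Between cell types, 22 of the 105 passed in ducts (14 higher in basal cells and 8 lower) and 24 in TEBs (14 higher and 10 lower), against 22.3% and 25.1% of all genes. Of all genes, 12.6% passed as higher and 9.71% as lower in ducts, and 13.2% as higher and 11.8% as lower in TEBs. Without both libraries of high mitochondrial share these were 10 higher and 17 lower in ducts and 17 higher and 13 lower in TEBs. Of 16 chaperones of the endoplasmic reticulum, 5 passed as higher in basal cells of ducts and 8 in those of TEBs, none passed as lower, and 3 had a log2 fold change below 0 in each. Hspa5 (BiP), their HSP70, averaged 1415 ± 151.0 CPM (SD) over the 3 basal duct libraries and 1834 ± 485.6 CPM over the 3 basal TEB libraries. It had 712.5 ± 169.5 CPM (n = 2) in luminal duct and 742.2 ± 120.5 CPM (n = 3) in luminal TEB. Basal TEB replicates 1, 2 and 3 were at 2187, 1280 and 2034 CPM, the lowest being replicate 2, with the lowest mitochondrial share of its group. Hspa5 was 2.47-fold higher in basal than luminal cells of TEBs (log2 fold change 1.30, SE 0.25, FDR 0.00214).

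Hsp90b1 (GRP94), the HSP90 of the same compartment, was 2.68-fold higher in basal cells of TEBs (log2 fold change 1.42, SE 0.25, FDR 0.00122), with 1360 to 2348 CPM in basal and 665.0 to 739.0 CPM in luminal TEB. Pdia4, a disulfide isomerase, was 2.88-fold higher (log2 fold change 1.52, SE 0.25, FDR 0.000682). Without composition scaling Hspa5 (0.82, FDR 0.0749) and Hsp90b1 (0.97, FDR 0.0560) did not pass in TEBs. Between TEBs and ducts none of the 16 passed, although 15 had a log2 fold change above 0 in basal cells and 14 in luminal cells, against 46.9% and 52.1% of all genes.

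Of 5 tested small heat shock proteins other than Hspb1, 3 passed as higher in basal cells of ducts and 2 in those of TEBs, against 12.6% and 13.2% of all genes, and the others did not pass. Cryab (alpha B-crystallin) was measured at 66.9 to 70.3 CPM in basal duct, 46.1 to 86.1 CPM in basal TEB, 13.0 and 19.0 CPM in luminal duct and 7.42 to 8.94 CPM in luminal TEB. It was 4.27-fold higher in basal cells of ducts (log2 fold change 2.09, SE 0.29, FDR 0.000291) and 7.87-fold higher in those of TEBs (2.98, SE 0.26, FDR 5.95e-06). Hspb6 had a log2 fold change of 2.32 in ducts (SE 0.44, FDR 0.00254), and Hspb8, the partner of Bag3, one of 0.63 in ducts (FDR 0.0371). Hspb8 had means of 57.7 ± 8.86 and 62.3 ± 5.48 CPM in basal duct and TEB, and of 37.2 ± 0.40 and 49.3 ± 2.93 CPM in luminal duct and TEB. In TEBs Hspb1 thus went the opposite way from Cryab between the cell types.

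Of 8 further HSP70 genes, 2 passed as higher and 1 as lower in basal cells of ducts, and 1 as higher and 2 as lower in those of TEBs. Of 23 J-domain genes, 2 passed as higher and 2 as lower in ducts, and 0 as higher and 5 as lower in TEBs. The shares of all genes were 12.6% higher and 9.71% lower in ducts, and 13.2% higher and 11.8% lower in TEBs. Neither family was tested as a set. Hspa4l, an HSP110 relative, was 13.7-fold lower in basal than luminal cells of TEBs (log2 fold change -3.78, SE 0.59, FDR 0.000475), at 1.85, 3.94 and 1.06 CPM against 30.9, 32.3 and 31.5 CPM. Without basal TEB replicate 2 its log2 fold change was -4.48. Hspa2 was 3.26-fold higher in basal cells of ducts (log2 fold change 1.70, SE 0.27, FDR 0.000605). Dnajb4 was lower in basal cells of TEBs (-1.43, SE 0.39, FDR 0.0182), a call lost without luminal TEB replicate 3 (-1.42, FDR 0.0524). Its basal TEB libraries were at 21.2, 68.6 and 65.6 CPM and its luminal ones at 137.0, 141.3 and 140.2 CPM.

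Dnajc1 was higher in basal cells of ducts (log2 fold change 1.25, SE 0.39, FDR 0.0369), where the luminal duct libraries were at 50.8 and 14.9 CPM. Its log2 fold change was 0.62 (FDR 0.0951) without luminal duct replicate 3 and 2.39 without luminal duct replicate 1, and the call was also lost without basal duct replicate 1, 2 or 3 (1.28, 1.20 and 1.26), basal TEB replicate 2 (1.25, FDR 0.0531) or luminal TEB replicate 1, 2 or 3 (FDR 0.0543, 0.0539 and 0.0554). Grpel2, an exchange factor of mitochondrial HSP70, was lower in basal cells of ducts (-1.77, SE 0.39, FDR 0.00588), and Pfdn1, a prefoldin subunit, likewise (-1.51, SE 0.24, FDR 0.000786). Of 14 chaperonin and prefoldin genes, 3 passed as lower in basal cells of ducts, against 9.71% of all genes, and 1 as higher in TEBs, against 13.2%.

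**Figure D4:**
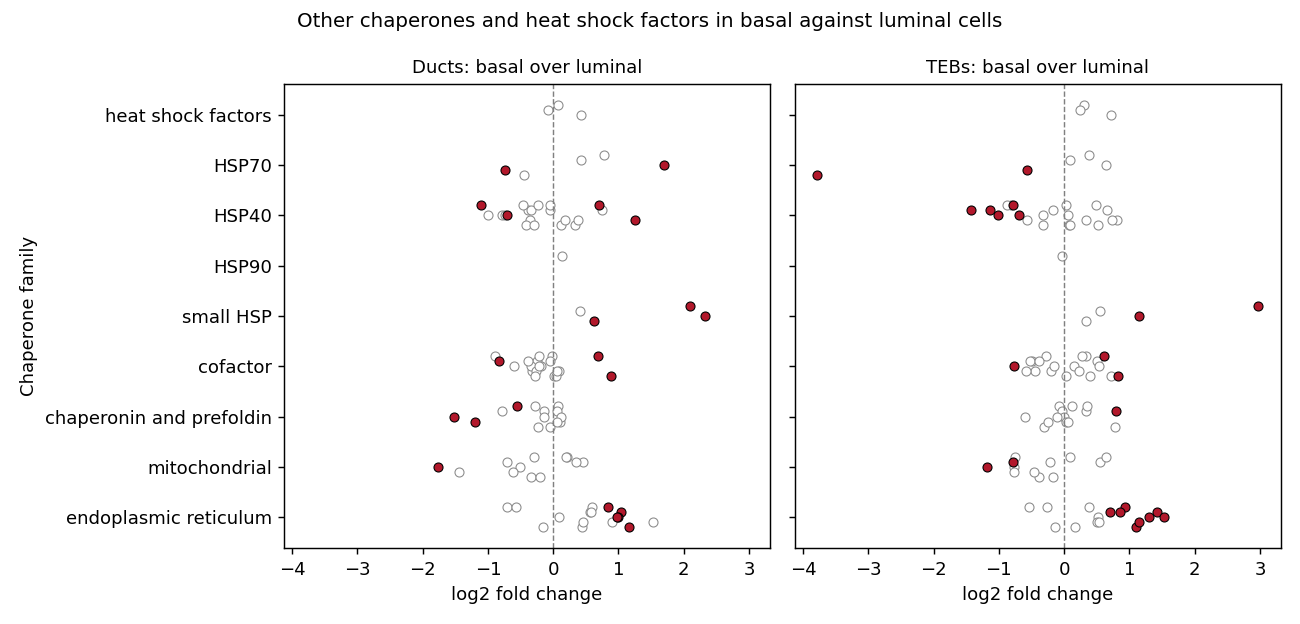
Log2 fold change of basal over luminal cells in ducts and in TEBs for 96 chaperones and heat shock factors whose mean log2 CPM reached 3 or more, 1 point per gene in a row per family, filled where the FDR was below 0.05. Filled points of the endoplasmic reticulum and small HSP rows all lie to the right of 0.

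The genes of the heat shock factors did not pass in any comparison, and the activity of the factor proteins was not measured. Hsf1 was at 44.5 to 63.9 CPM and Hsf2 at 9.15 to 23.7 CPM over all libraries. Of 5 genes in the factor list, none passed, in either direction, in any of the 4 comparisons by edgeR's quasi-likelihood test, and none had an unadjusted p below 0.05. The list holds Hsf1, Hsf2 and Hsf4, with Hsbp1 and Hsf2bp, which encode proteins that bind the factors. Hsp90ab1, the HSP90 made without stress, was at 1878 to 2796 CPM and did not pass in any comparison either. Hspa9, the HSP70 of mitochondria and a partner of Hspd1 there, was at 246.0 to 379.0 CPM and did not pass in any. Its mean was 271.8 ± 42.7 CPM in basal duct, 310.7 ± 44.8 CPM in basal TEB, 313.9 ± 92.0 CPM in luminal duct and 348.4 ± 26.1 CPM in luminal TEB.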

How the data were processed

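RNA was taken from sorted basal and luminal cells of micro-dissected TEBs and ducts. Per the paper's methods, libraries were made from about 10 ng of total RNA with a TruSeq RNA kit (of a type that does not mark strand) and sequenced as 80 bp read pairs, and the authors mapped these to mm10 using Rsubread and summarised them per Entrez gene from its inbuilt RefSeq annotation. The values deposited by the authors are raw counts, not normalized, and featureCounts is named in the submitters' processing notes. Each library's own table equalled its column of the series table.

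From the counts, 17370 genes passing filterByExpr (minimum count 10, minimum total 15) were fitted with edgeR 4.0.16 in R 4.3.3 (limma 3.58.1, DESeq2 1.42.0) over 4 groups, after TMM scaling, by the quasi-likelihood test with Benjamini-Hochberg adjustment over all genes and an FDR threshold of 0.05. The paper names glmFit, whose likelihood ratio test is an alternative here. The SE was obtained by dividing the log2 fold change by the root of its F statistic. CPM and RPKM use TMM-scaled library sizes, and log2 CPM a prior count of 2. Depth ran from 27989137 to 49221436 counts, and the lowest count of a heat shock gene in a library was 953.

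The members and lists were chosen with earlier results of these data known. All 10 members are named whatever their values. Of other chaperones, those past the threshold are named, at most the 6 largest changes per comparison among genes whose mean log2 CPM reached 3 or more, with Hsf1, Hsf2, Hsp90ab1, Hspa5, Hsp90b1, Hspa9, Hspb8 and Cryab in addition. For likeness, 3 genes are named for each of Hspa1a and Hspd1. Scripts were tested on simulated counts. Alternatives were other scaling, filters and tests, the replicate number as a block, mitochondrial genes or libraries left out, the HSP70 pair summed, and each library left out in turn. Protein sequences were not used here.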

Additional observations from a re-analysis of the deposited data

How the results depend on the processing

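Of the members, 2 passed between basal TEB and duct. There were 4 with DESeq2 size factors, with no filter, with the DESeq2 Wald test, with edgeR's likelihood ratio test and with limma voom, 0 under library size alone, 1 without both libraries of high mitochondrial share, and 1 to 4 with each library left out in turn. In luminal cells the number was 0, except for 1 without luminal duct replicate 1, where the lone luminal duct library is assumed to vary like the other groups (0 to 1 with libraries left out). In ducts it was 2 (4 with limma voom, 1 to 4 with libraries left out), in TEBs 5 (7 in a fit of the groups compared alone, 4 under library size alone, 4 to 5 with libraries left out), and in the interaction 0 (1 with no filter or limma voom, 2 with DESeq2 or the likelihood ratio test, 0 to 2 with libraries left out). Signs of members that had not passed turned for 47 values. Under library size alone these were Bag3 (-0.17) and Hspa8 (-0.14) in TEBs, Dnajb1 (0.15), Hspa1b (0.013), Hspb1 (0.22), Hspe1 (0.25) and Hsph1 (0.32) in luminal cells, and Hspd1 (-0.49) and Hsph1 (-0.56) in the interaction. Hspa8 in luminal cells turned with DESeq2 size factors and the DESeq2 Wald test (-0.026 in both), upper-quartile scaling (-0.016) and filtering on a mean CPM of 1 (-0.0023), and without both libraries of high mitochondrial share (-0.24), which also turned Hspb1 in ducts (-0.0041) and Hsph1 in the interaction (-0.16). With each library left out in turn, Hsph1 ran from -0.25 to 0.18 in basal cells. In luminal cells Dnajb1 ran from -0.61 to 0.44, Hspa1b from -0.83 to 0.51, Hspa8 from -0.26 to 0.40, Hspe1 from -0.39 to 0.27 and Hsph1 from -0.22 to 0.038. In ducts Dnajb1 ran from -0.69 to 0.36, Hspa1a from -0.67 to 0.43, Hspa1b from -0.83 to 0.50 and Hspb1 from -0.0067 to 0.22, and in the interaction Hspd1 ran from -0.12 to 0.19 and Hsph1 from -0.22 to 0.25. The cause was not tested.

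The study describes 3 pools of mice, but the labels do not say that a replicate number marks a pool. Same-numbered basal duct and basal TEB libraries correlated in their deviations with r of 0.114, 0.115 and 0.0596, each of these best with its own number, a hint from the data. Basal and luminal TEB libraries likewise had 0.0726, 0.0793 and 0.0194. Luminal duct replicate 1 had 0.163 with luminal TEB replicate 1, and replicate 3 had 0.0689 with luminal TEB replicate 3 and 0.103 with replicate 2. Basal and luminal duct libraries had 0.0887 for replicate 1 and -0.0677 for replicate 3. With 2 luminal duct libraries, every value of replicate 3 is that of replicate 1 with its sign turned. The luminal duct values of replicate 3 are thus no separate evidence on pairing. A cut of 0.1 was used, which is a choice. Since 1 of the 3 basal values was not over it, the numbers were not taken as pairs. The calls of Hspa1a, Hspa1b and Bag3 in basal cells depend on that choice. With the replicate number as a block, 3 members passed in basal cells (Hspa1a -1.76, FDR 0.00608, Hspa1b -1.64, FDR 0.00941, and Hspb1 -1.54, FDR 0.00172, without Bag3, -1.09, FDR 0.0611), 0 in luminal cells, 2 in ducts, 6 in TEBs and 0 in the interaction, and signs of members not called turned for Hspb1 in ducts (-0.0038), Hspe1 in luminal cells (0.0046) and Hspd1 (-0.028) and Hsph1 (-0.014) in the interaction.

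Library size alone gave all genes a median log2 fold change of -0.16 and 0.42 for TEBs against ducts in basal and luminal cells, 0.19 in ducts, -0.35 in TEBs and -0.63 in the interaction, and the genes called to 57, 10, 2762, 3712 and 15, from 230, 245, 3878, 4354 and 77. The share of calls that were higher moved from 12.6% to 1.75% in basal cells, from 52.8% to 37.2% in TEBs and from 18.2% to 6.67% in the interaction. DESeq2 and the likelihood ratio test called 874 and 707 genes in basal cells, 1277 and 1006 in luminal cells and 712 and 629 in the interaction, and limma voom called 601 in basal cells. A fit of the groups compared alone called 603 in luminal cells, the replicate block 125 there and 46 in the interaction, and leaving out both libraries of high mitochondrial share 372 and 198. No filter gave 141 in the interaction. With each library left out in turn the genes called ran from 59 to 399 in basal cells, 37 to 1305 in luminal cells and 7 to 753 in the interaction. Numbers of other chaperones called as higher and lower ran, over alternatives added after the data were seen, from 6 to 19 and 4 to 17 in ducts and from 3 to 20 and 3 to 15 in TEBs. The luminal duct group held 2 libraries, and the biological coefficient of variation was 0.704. Each member had 953 or more counts in every library.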
